A study of Mus musculus with 8 samples.

Results

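The genes described here are the ligands and receptors of the classical axon guidance systems, measured in mouse liver. They are the semaphorins and plexins, the Slits and Robos, the ephrins and Eph receptors of classes A and B, and the netrins and Unc5 receptors. Members were taken by a rule on gene symbols that uses no measured value, but the set was chosen with earlier results of these data known. Of 35204 gene rows, 66 matched, 35 of them ligands and 31 receptors. Of these, 53 had a mean of at least 10 normalised counts over the 8 libraries and were tested together with all other such genes, 14171 in total.

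Poly-A RNA from pieces of liver was sequenced in 8 libraries, and the series title places the comparison in work on TAZ and TEAD2 in hepatocellular carcinoma. The 3 controls came from wild-type C57BL/6J mice with no treatment. The other 5 libraries came from C57BL/6J mice, also labelled wild type, that received EF1a-TAZS89A by HTVI and CCl4 on 30 occasions, 3 per week over 10 weeks; they are called TAZ-CCl4 libraries here. HTVI, hydrodynamic tail vein injection in this field's usage, brings DNA mainly into hepatocytes, and EF1a is a promoter active in most cell types. TAZ is a coactivator of TEAD transcription factors that the Hippo pathway restrains, S89A removes a phosphorylation site used for that restraint, and CCl4 is a hepatotoxin that injures and scars the liver. No group used here received the construct alone or CCl4 alone, so the effects of each cannot be told apart. The labels place the controls in one library project and the TAZ-CCl4 libraries in another, so project and treatment cannot be told apart either. Age is not given in the sources used here, and the labels do not say whether libraries of a group are different mice. The p-values therefore speak of the spread among these libraries, part of which may be technical.

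Axon guidance molecules steer growing nerve fibres by attraction or repulsion, and the same proteins pattern vessels, epithelia and immune cells outside the nervous system. Semaphorins are secreted or membrane-bound ligands of plexins, and most class 3 semaphorins also need a neuropilin as co-receptor. Slits are secreted ligands of Robo receptors, netrins are laminin-related ligands of Dcc, neogenin and Unc5 receptors, and ephrins are membrane-anchored ligands of Eph receptor tyrosine kinases on neighbouring cells. In blood vessels, ephrin-B2 is known for its arterial and EphB4 for its venous expression, and Robo4 and Plxnd1 are known from endothelial cells.

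Guidance genes were more often higher than lower in the TAZ-CCl4 livers. Of the 53 tested members, 34 rose, 5 fell and 14 did not pass the test (limma, Benjamini-Hochberg adjusted p under 0.05 over all tested genes). The rise was called in 32.4% of all tested genes and the fall in 29.8%, so that 62.3% of all genes were called in either direction; among the tested members 64.2% were called higher and 9.43% lower. A call of at least 2-fold higher was made for 31 members, against 23.9% of all tested genes, and one of at least 4-fold higher for 19, against 14.7%. The median log2 fold change was 1.36 over the tested members and 0.03 over all tested genes, on the scale of log2(value + 1), which understates the change of low genes. The values of the 2 groups did not overlap in 36 of the 53 members and in 60.1% of all tested genes. The members that fell were Sema4g, Sema5b, Efna1, Epha5 and Ntn3. A member that passed the minimum mean only through 1 group had to differ, so these counts describe the tested members and not all 66. Efna4, Epha4, Ephb3, Sema3a, Sema3e, Sema3g, Sema7a, Slit1 and Slit3 had control means under 10 and passed through the TAZ-CCl4 group. Epha5 and Sema5b had TAZ-CCl4 means under 10 and passed through the controls.

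**Figure D1:**
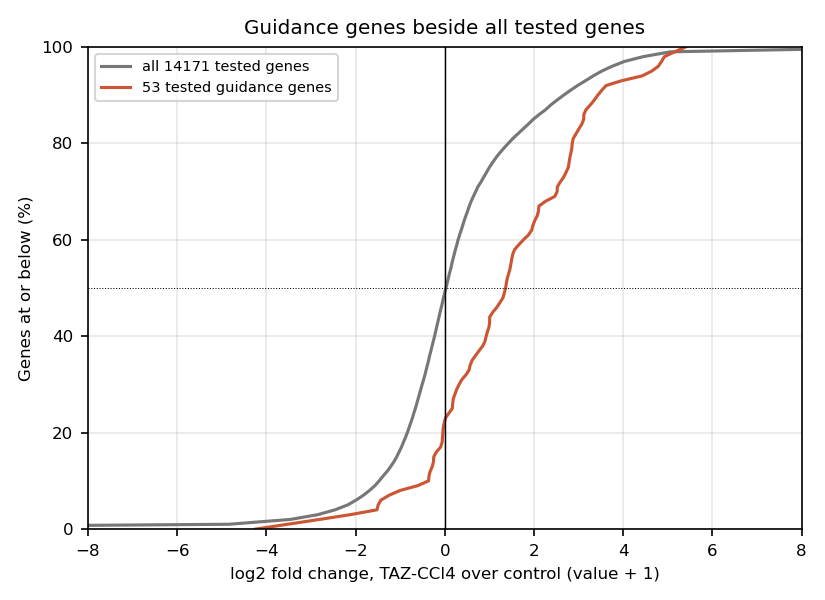
Share of genes (y, in %) at or below each log2 fold change of TAZ-CCl4 over control (x, on the value + 1 scale), for the 53 tested guidance genes (red) and all 14171 tested genes (grey). The members' curve lies to the right of the other over most of its course, with a median of 1.36 against 0.03.

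The scaling of the libraries moves these counts. The controls had normalised totals of 29.8 to 35.1 M and the TAZ-CCl4 libraries totals of 12.4 to 14.2 M. Setting them equal raised the median over all tested genes to a log2 fold change of 1.26. Under that scaling 47 members were called higher, beside 76.3% of all tested genes, and 2 lower, beside 6.39%. Leaving the major urinary protein (Mup) and mitochondrial genes out of the totals gave 43 higher, beside 62.9%, and 3 lower, beside 10.7%. Equal upper quartiles gave 36 higher, beside 39.7%, and 5 lower, beside 21.9%. With quantile normalisation the median of all genes was −0.02, and 27 members were called higher, beside 29% of all tested genes, and 8 lower, beside 29.5%. At equal totals the members' median was 2.56 against 1.26 for all genes, and 2.18 against 0.85 when these left out Mup and mitochondrial genes. It was 1.60 against 0.27 at equal upper quartiles and 0.96 against −0.02 with quantiles. All but the quantile scaling multiply each library by a single factor, which moves nearly all genes alike. Those scalings could therefore not close the gap between members and all genes, and only the quantile scaling could. Of the 34 members that rose as deposited, 25 were called higher at all 5 scalings. The single factors raised the fold changes, so the quantile scaling was the main check on these rises. The other 9 (Efnb1, Ephb2, Ephb3, Plxna4, Sema3a, Sema6b, Sema6d, Slit1 and Unc5a) were not called with quantiles. Epha5 and Sema5b were called lower at all 5. Efna5, Epha7, Ntn1 and Sema6c, none of them called as deposited, were called higher at equal totals and lower with quantiles, so that the data give them no direction.

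**Figure D2:**
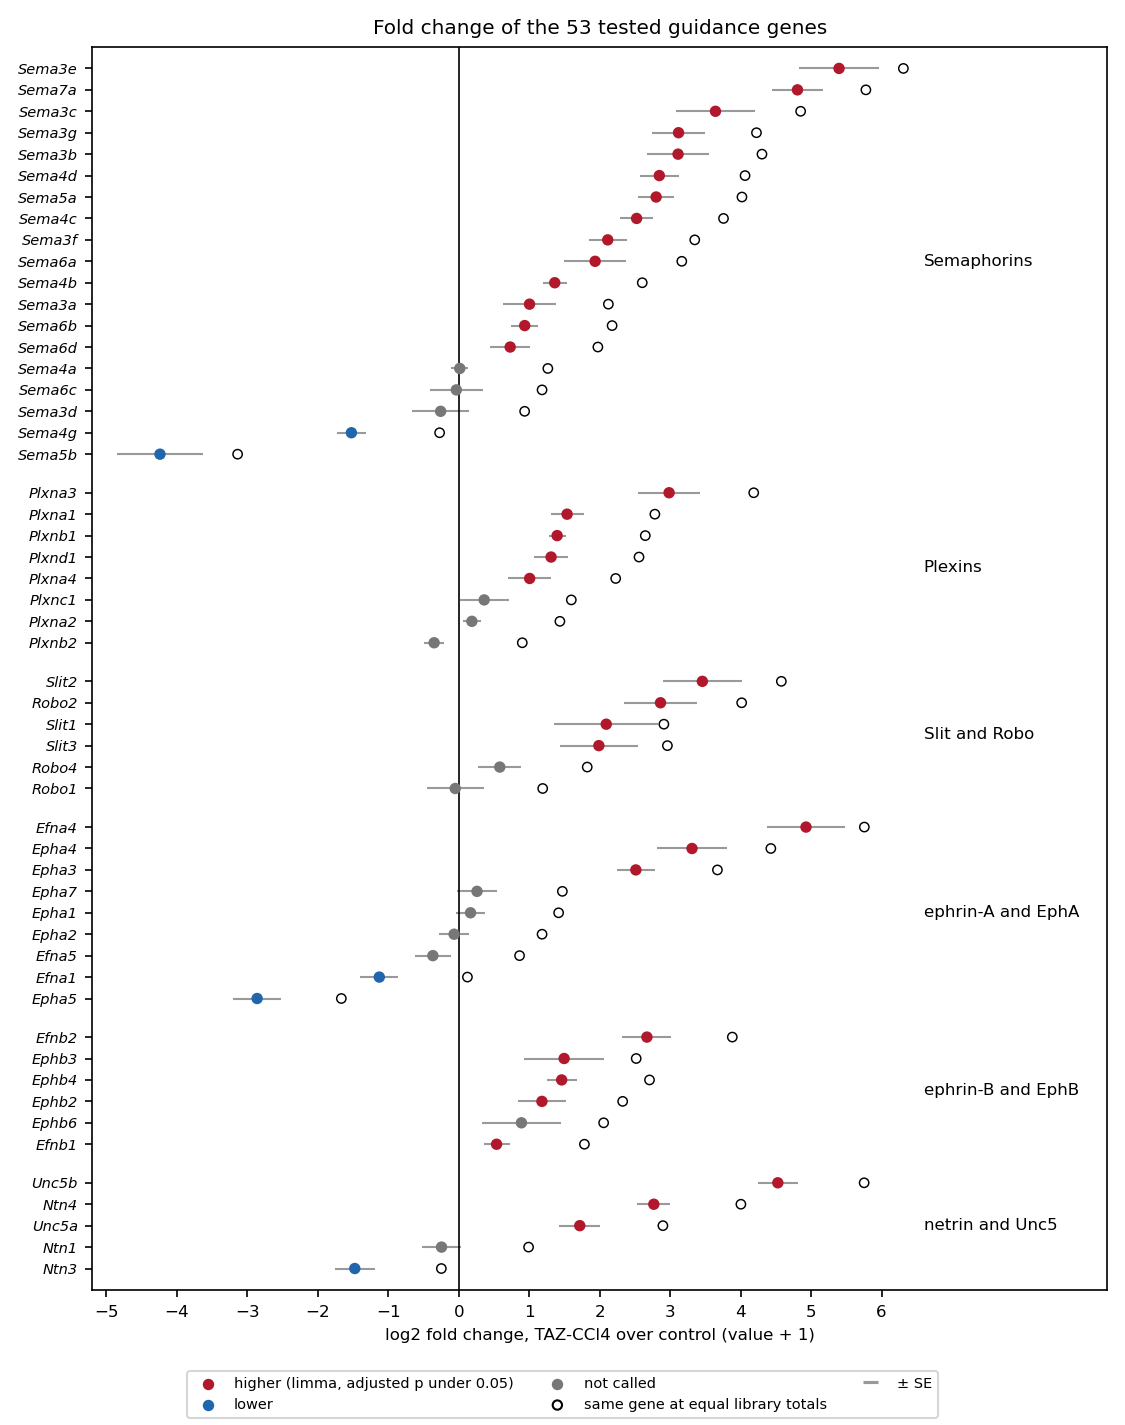
Log2 fold change of TAZ-CCl4 over control (x, value + 1 scale) for each of the 53 tested guidance genes (y), by family. Filled points show the deposited scaling with ± SE, coloured by call (red higher, blue lower, grey not called); open points show the same gene at equal library totals, where every gene lies further to the right.

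Markers of the liver's cell types moved with the groups, to be read beside the 32.4% of all tested genes that rose and the 29.8% that fell. Of 12 hepatocyte markers 11 fell and 1 (Alb) did not pass the test, and their summed level was 2288480 to 2873003 normalised counts in the controls and 716688 to 1051476 in the TAZ-CCl4 livers. Of 11 tested bile duct markers 9 rose, and all 10 macrophage markers did. Spp1, at 1604 to 2254 and then 30488 to 115100, is in both of these lists and held most of both treated sums. Without it the bile duct markers summed to 1107 to 1566 and 4408 to 10217, and the macrophage markers to 1106 to 1476 and 11538 to 18493. All 12 myofibroblast markers rose (sums 1010 to 1302 and 7592 to 17337). Of 12 markers of continuous endothelium 10 rose (1804 to 3190 and 4104 to 5498), while of 11 markers of sinusoidal endothelium 3 rose and 5 fell (3108 to 5844 and 4225 to 5236). Of 12 stellate cell markers 4 rose and 1 fell (3645 to 6653 and 6316 to 6605), and of 9 tested lymphocyte markers 4 rose (113.9 to 205.8 and 160.8 to 385.8). Of 9 tested Kupffer cell markers 3 fell (C6, Timd4 and Cd163) and 1 rose, Cdh5, which is also in the list for continuous endothelium. C6 held most of the control sum, and without C6 and Cdh5 the Kupffer cell markers summed to 1184 to 2326 in the controls and to 199.8 to 2893 in the TAZ-CCl4 livers, ranges that overlap. Some of these counts move with the scaling: at equal totals 5 sinusoidal endothelium markers were called higher and 0 lower, 9 stellate cell markers higher and 1 lower, 2 Kupffer cell markers higher and 2 lower, and 7 hepatocyte markers lower.

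Neuron and Schwann cell markers were low: of 14 genes 3 were tested, of which 1 rose and 1 fell, with sums of 323.9 to 416.3 in the controls and 181.8 to 383.7 in the TAZ-CCl4 livers. Syt1 held most of the control sums. Without it the other markers summed to 51.3 to 90.4 in the controls and to 97.0 to 161.3 in the TAZ-CCl4 livers, ranges that do not overlap. Elavl4 was listed at 0 in all libraries, Nefm at 0 in all controls and Sox10 at 0 in all TAZ-CCl4 libraries. The part of these cell types in the values of the guidance genes was not tested. In bulk tissue, fewer cells of a type and less RNA per cell cannot be told apart.

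Since the injected construct is a partner of TEAD factors, the start regions of the guidance genes were searched for GGAATG, the core motif TEAD factors recognise, on either strand (CATTCC when read on the other strand). RefSeq start regions in build GRCm38.p6, 250 bases before to 50 after the start, were found for 57 of the 66 members. The motif was in 9 of their 73 regions (12.3%) and in 14.7% of all 32851 regions of that length. Among members that rose it was in 5 of 36 regions (13.9%), and among those that fell in 1 of 6. The share in the members was thus near that of all genes. A match is a description of letters and not a bound site. The regions that hold it among members that rose belong to Plxnb1, Plxnd1, Efnb2, Epha3 and Robo2, and the one among members that fell to Ntn3. All but that of Robo2, which lies outside the gene's span in the annotation used for positions, are shown 5′ to 3′ on the gene's strand with the motif in capitals.
Plxnb1 (chr9:109095186-109095485, + strand): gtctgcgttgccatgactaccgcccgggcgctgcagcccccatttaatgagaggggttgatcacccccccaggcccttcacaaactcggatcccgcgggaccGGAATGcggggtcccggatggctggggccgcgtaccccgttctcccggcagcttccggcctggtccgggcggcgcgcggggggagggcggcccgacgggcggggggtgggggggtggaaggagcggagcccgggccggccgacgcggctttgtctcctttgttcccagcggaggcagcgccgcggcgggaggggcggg
Plxnd1 (chr6:115994956-115995255, − strand): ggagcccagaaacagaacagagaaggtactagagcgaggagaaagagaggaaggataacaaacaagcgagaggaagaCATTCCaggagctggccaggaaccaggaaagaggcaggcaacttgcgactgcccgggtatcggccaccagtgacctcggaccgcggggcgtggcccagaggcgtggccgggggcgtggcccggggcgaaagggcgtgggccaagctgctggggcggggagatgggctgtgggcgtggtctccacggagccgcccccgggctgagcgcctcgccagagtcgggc
Efnb2 (chr8:8661193-8661492, − strand): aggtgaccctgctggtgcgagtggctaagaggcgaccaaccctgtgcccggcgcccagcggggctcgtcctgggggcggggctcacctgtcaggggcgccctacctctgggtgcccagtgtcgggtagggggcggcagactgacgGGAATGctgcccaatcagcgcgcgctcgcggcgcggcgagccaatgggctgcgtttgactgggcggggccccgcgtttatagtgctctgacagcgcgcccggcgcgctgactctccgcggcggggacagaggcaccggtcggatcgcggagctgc
Epha3 (chr16:63864126-63864425, − strand): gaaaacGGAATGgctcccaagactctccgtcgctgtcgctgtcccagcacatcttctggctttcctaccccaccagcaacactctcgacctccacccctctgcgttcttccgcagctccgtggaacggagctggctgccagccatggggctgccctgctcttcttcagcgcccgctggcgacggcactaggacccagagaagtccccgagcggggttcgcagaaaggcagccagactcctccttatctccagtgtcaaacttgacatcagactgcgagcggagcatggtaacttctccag
Ntn3 (chr17:24209338-24209637, − strand): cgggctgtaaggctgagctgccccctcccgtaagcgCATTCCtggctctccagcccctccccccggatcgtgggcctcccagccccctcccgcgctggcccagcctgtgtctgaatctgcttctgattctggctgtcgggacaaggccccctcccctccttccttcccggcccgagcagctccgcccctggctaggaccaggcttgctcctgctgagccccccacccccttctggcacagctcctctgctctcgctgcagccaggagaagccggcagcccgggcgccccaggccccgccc
The motif began 148 bases before the start site in Plxnb1, 173 before it in Plxnd1, 105 before it in Efnb2, 244 before it in Epha3 and 214 before it in Ntn3. It read GGAATG on the gene's strand in Plxnb1, Efnb2 and Epha3 and CATTCC in Plxnd1 and Ntn3.

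Semaphorins made up the largest family. Of 20 semaphorin genes 19 were tested, of which 14 rose, 2 fell and 3 did not pass the test. These are 73.7% higher and 10.5% lower, beside 32.4% and 29.8% of all tested genes. The median log2 fold change was 1.94. Of the 7 secreted class 3 semaphorins, 6 rose and Sema3d did not pass. Sema3e, which can signal through Plxnd1 without a neuropilin, had the largest log2 fold change of all members. Its values (mm10 chromosome 5, 14025276 to 14256689) were 2.26, 1.09 and 2.16 normalised counts in controls 1 to 3, against 153.2, 30.9, 138.8, 154.3 and 204.5 in TAZ-CCl4 libraries 1 to 5. All controls lay at about the estimated worth of 1 or 2 reads, TAZ-CCl4 library 2 stood below the others, and the groups did not overlap. The log2 fold change was 5.40 ± 0.57 (SE; limma adjusted p = 2.1e-05).

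Sema3c, a secreted semaphorin that acts through neuropilins (chromosome 5, 17574281 to 17730268), was at 20.8, 22.6 and 30.4 among controls 1 to 3, against 1002, 154.4, 163.2, 493.5 and 246.9 among TAZ-CCl4 libraries 1 to 5. Its spread among treated livers was wide: the group mean of 412.1 became 264.5 without library 1, while the log2 fold change of 3.64 ± 0.55 became 3.23 and stayed called (limma adjusted p = 2.5e-04 with all libraries). Sema7a is anchored to the membrane by a lipid and binds Plxnc1 and integrins. It was at 3.55, 3.41 and 1.13 among controls 1 to 3, against 125.4, 103.3, 100.2, 74.3 and 88.4 among TAZ-CCl4 libraries 1 to 5 (chromosome 9, 57940112 to 57962865). No treated library came near a control, and the log2 fold change was 4.81 ± 0.36 (limma adjusted p = 2.4e-06).

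The largest fall was in Sema5b, a membrane-spanning semaphorin with thrombospondin repeats (chromosome 16, 35541145 to 35664732). Controls held 80.9, 65.0 and 96.7 normalised counts and TAZ-CCl4 libraries 4.47, 4.54, 9.52, 0.458 and 2.06. The groups were far apart, with a log2 fold change of −4.24 ± 0.61 (limma adjusted p = 1.7e-04). Sema5a, the other class 5 member, rose from 32.8 ± 4.71 (SD, n = 3) to 240.7 ± 70.9 (SD, n = 5).

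Sema4g, a membrane-spanning class 4 semaphorin (chromosome 19, 44989101 to 45003397), had the highest level per kilobase of all members in both groups. It was at 14669, 12979 and 17874 among controls 1 to 3, against 4350, 7569, 5531, 5158 and 4171 among TAZ-CCl4 libraries 1 to 5. Every treated library was below every control, and the log2 fold change was −1.52 ± 0.21 (limma adjusted p = 1.2e-04). The fall was not called at equal totals, where it was −0.27, nor with quantiles, where it was −0.37. Sema4b, Sema4c and Sema4d, the last a ligand of Plxnb1, rose with log2 fold changes of 1.36, 2.52 and 2.85, whereas Sema4a was at 1154 ± 43.0 in the controls and 1170 ± 118.7 in the TAZ-CCl4 livers and did not pass the test. Sema4a was called higher at equal totals (1.26), also without Mup and mitochondrial genes (0.85), and with quantiles (0.37).

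Among the other semaphorins that rose, Sema3g and Sema3b had log2 fold changes of 3.12 and 3.11, and Sema3f one of 2.11. Sema6a, Sema6b and Sema6d, membrane-spanning ligands of class A plexins, rose by 1.94, 0.94 and 0.73 on that scale, while Sema6c did not pass the test. Sema6a was at 587.3 in TAZ-CCl4 library 4 and at 175.4 to 211.2 in the other treated libraries, and without library 4 its log2 fold change was 1.62 and still called. Sema3a rose from 8.37 ± 1.05 to 18.2 ± 4.66, but its call and that of Sema6d hung on single libraries. Of the 8 fits without 1 library, 2 kept the call of Sema3a, those without TAZ-CCl4 library 3 or 4. For Sema6d the fits that kept it were 3, those without control 2 or TAZ-CCl4 library 2 or 4. Sema3d was at 28.0 ± 9.17 in the controls and 23.5 ± 8.12 in the TAZ-CCl4 livers.

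**Figure D3:**
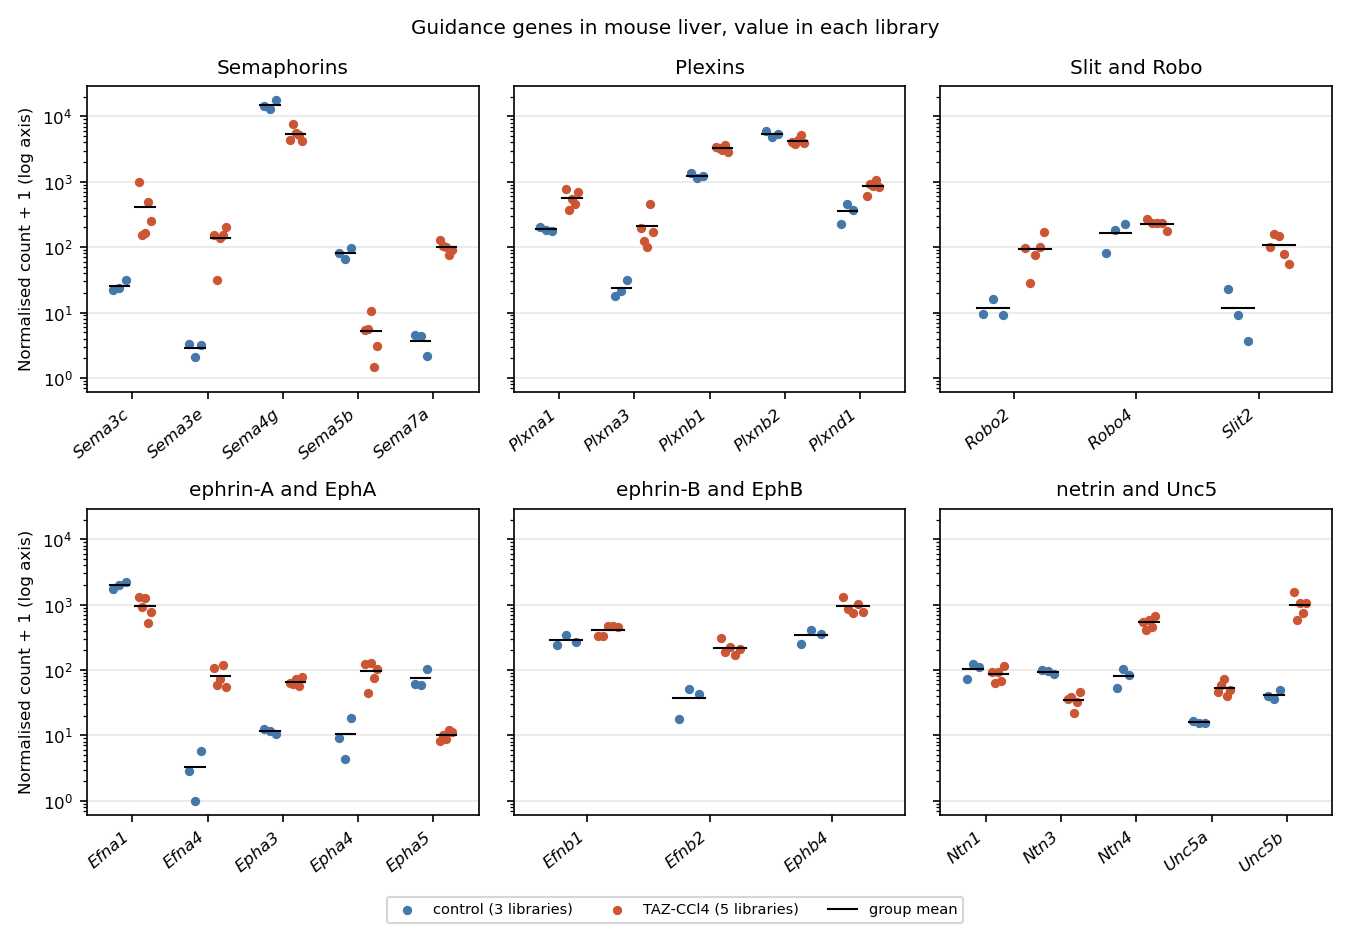
Normalised count + 1 (y, log axis) of the 26 named guidance genes in each library, by family, with controls in blue, TAZ-CCl4 libraries in red and the group mean as a line. Sema3e, Sema7a, Efna4 and Unc5b show wide gaps between groups, Sema5b and Epha5 show gaps the other way, and Plxnb2, Robo4, Efnb1 and Ntn1 overlap.

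Of 9 plexin genes, the receptors of semaphorins, 8 were tested, 5 rose, none fell and 3 did not pass the test. These are 62.5% higher and 0% lower, beside 32.4% and 29.8% of all tested genes. The median log2 fold change was 1.16. Plxna3, which works with neuropilins, was at 16.99, 19.99 and 30.1 among controls 1 to 3, against 198.1, 122.4, 99.7, 452.6 and 166.9 among TAZ-CCl4 libraries 1 to 5 (chromosome X, 74329066 to 74344689). Library 4 stood above the other treated libraries, all of which were above the controls. The log2 fold change was 2.99 ± 0.44 (limma adjusted p = 2.1e-04) and 2.65 without that library.

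Plxna1, a plexin that pairs with neuropilins and class 6 semaphorins, was at 205.8, 181.7 and 177 among controls 1 to 3, against 771.3, 364.2, 550.6, 455 and 695.2 among TAZ-CCl4 libraries 1 to 5 (chromosome 6, 89316314 to 89362620). The groups were apart, with a log2 fold change of 1.54 ± 0.23 (limma adjusted p = 2.5e-04). Plxnb1, the receptor of Sema4d, was at 1345, 1128 and 1218 among controls 1 to 3, against 3383, 3322, 3036, 3626 and 2850 among TAZ-CCl4 libraries 1 to 5 (chromosome 9, 109095389 to 109119917). No treated library fell under 2850, and the log2 fold change was 1.40 ± 0.12 (limma adjusted p = 6.4e-06).

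Plxnd1, the receptor of Sema3e (chromosome 6, 115954811 to 115995005), was at 228, 463.2 and 373.6 among controls 1 to 3, against 602.9, 935.3, 868.3, 1082 and 817.8 among TAZ-CCl4 libraries 1 to 5. The lowest treated library lay above the highest control, with a log2 fold change of 1.31 ± 0.24 (limma adjusted p = 9.3e-04). Plxna4, a receptor for class 3 and class 6 semaphorins, rose from 40.4 ± 5.05 to 85.8 ± 29.7, a call that was lost without control 1. The plexin with the highest level per kilobase in both groups was Plxnb2, a receptor of class 4 semaphorins (chromosome 15, 89155549 to 89180788). It was at 5902, 4758 and 5468 among controls 1 to 3, against 3989, 3757, 4281, 5123 and 3984 among TAZ-CCl4 libraries 1 to 5. These ranges overlapped and the test fell just short, with a log2 fold change of −0.35 ± 0.14 (limma adjusted p = 0.0503). Without control 2 or without TAZ-CCl4 library 4 it was called lower, at −0.44 and −0.42. It was called higher at equal totals (0.90), also when these left out Mup and mitochondrial genes (0.48), and with quantiles (0.53), so its direction turned with the scaling. Plxna2 and Plxnc1, the receptor of Sema7a, did not pass the test, with log2 fold changes of 0.19 and 0.36. Both were called higher at equal totals, with or without Mup and mitochondrial genes, and Plxna2 also at equal upper quartiles (0.43).

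The Slits, Robo2 and Robo3 were low in the controls, with means of 3.51 to 17.8, while Robo1 and Robo4 had means of 149.8 and 162.7 there. Of 7 Slit and Robo genes 6 were tested, 4 rose, none fell and 2 did not pass. These are 66.7% higher and 0% lower, beside 32.4% and 29.8% of all tested genes. The median log2 fold change of the family was 2.04. All 3 Slits rose. Slit1 and Slit3 passed the minimum mean only through the TAZ-CCl4 group and had to be higher to be tested. Robo3, lower in the TAZ-CCl4 livers, was left untested, so these counts depend on that minimum. Slit2 (chromosome 5, 47983138 to 48307733) was at 21.7, 8.15 and 2.72 among controls 1 to 3, against 99.9, 157.6, 146.2, 77.6 and 55.0 among TAZ-CCl4 libraries 1 to 5. The controls differed among themselves, and without control 1 their mean of 10.8 became 5.43. Even so the groups were apart, with a log2 fold change of 3.46 ± 0.56 (limma adjusted p = 3.7e-04). Slit1 rose from 3.51 ± 3.04 to 15.2 ± 7.77 and Slit3 from 3.95 ± 3.17 to 16.8 ± 6.81, and the call of Slit1 was lost without control 1 or TAZ-CCl4 library 1, 4 or 5. Without control 3 the control mean of Slit3 was 2.25.

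Robo2 was the only tested Robo that rose (chromosome 16, 73891839 to 74411825). Its values were 8.54, 15.2 and 8.06 among controls 1 to 3, against 97.3, 26.8, 75.4, 98.4 and 170.2 among TAZ-CCl4 libraries 1 to 5. Treated library 2 was nearest to the controls and still above them, and the log2 fold change was 2.86 ± 0.52 (limma adjusted p = 8.0e-04). Robo4, the endothelial Robo, had the highest level per kilobase of the family in both groups (chromosome 9, 37401897 to 37415115). It was at 80.5, 183.4 and 224.2 among controls 1 to 3, against 263.7, 230.7, 230.7, 230.5 and 173.4 among TAZ-CCl4 libraries 1 to 5. The groups overlapped, and the log2 fold change of 0.58 ± 0.30 missed the threshold (limma adjusted p = 0.119). It was called higher without control 3, at 0.87, and at 3 of the other scalings, equal upper quartiles (0.82) and equal totals with Mup and mitochondrial genes (1.82) or without them (1.41). Robo1 was at 149.8 ± 46.8 in the controls and 153.8 ± 73.9 in the TAZ-CCl4 livers. Robo3, just under the minimum mean and not tested, was at 16.1, 17.6 and 19.7 among controls 1 to 3, against 3.20, 5.57, 1.24, 6.95 and 5.72 among TAZ-CCl4 libraries 1 to 5, with no overlap.

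Ephrin-A ligands and EphA receptors had members called in both directions. Of 14 genes 9 were tested, 3 rose, 2 fell and 4 did not pass the test. These are 33.3% higher and 22.2% lower, beside 32.4% and 29.8% of all tested genes, so the family's counts lie near the background. Its median log2 fold change was 0.17. Efna4, an ephrin anchored by a lipid, was at 1.89, 0 and 4.80 among controls 1 to 3, against 106.1, 56.9, 71.4, 116.3 and 53.5 among TAZ-CCl4 libraries 1 to 5 (chromosome 3, 89333390 to 89338028). The controls amounted to a few reads or none, and their mean of 2.23 became 0.945 without control 3. The log2 fold change was 4.93 ± 0.55 (limma adjusted p = 3.3e-05). Efna1, a ligand of Epha2, lies close by on the same chromosome (89271733 to 89281142) and moved the opposite way. It was at 1718, 2013 and 2223 among controls 1 to 3, against 1297, 907.2, 1266, 527.1 and 762.6 among TAZ-CCl4 libraries 1 to 5. Every treated library was below the controls, with a log2 fold change of −1.13 ± 0.27 (limma adjusted p = 0.0045). The fall was called at equal upper quartiles too (−0.88) but not with quantiles (−0.71), nor at equal totals, where the value was 0.12 with Mup and mitochondrial genes and −0.30 without them.

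Epha4, a receptor that binds ephrins of both classes (chromosome 1, 77367185 to 77515088), was at 8.11, 3.37 and 17.2 among controls 1 to 3, against 122.2, 43.5, 127.7, 75.5 and 103 among TAZ-CCl4 libraries 1 to 5. Library 2 was the lowest of the treated and above every control, and the log2 fold change was 3.31 ± 0.50 (limma adjusted p = 2.4e-04). Without control 3 the control mean of 9.55 became 5.74. Epha3 (chromosome 16, 63543534 to 63864175) was at 11.3, 10.9 and 9.58 among controls 1 to 3, against 61.6, 60.0, 72.8, 55.5 and 77.5 among TAZ-CCl4 libraries 1 to 5, narrow ranges in both groups, with a log2 fold change of 2.51 ± 0.26 (limma adjusted p = 2.2e-05).

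Epha5, a receptor best known from the brain, fell. It was at 60.9, 58.6 and 102.2 among controls 1 to 3, against 7.11, 9.06, 7.71, 11.1 and 10.4 among TAZ-CCl4 libraries 1 to 5 (chromosome 5, 84054761 to 84417382). The treated livers were close to each other and well below the controls, with a log2 fold change of −2.86 ± 0.35 (limma adjusted p = 5.4e-05). Epha2, the main receptor of Efna1, was at 495.3 ± 61.5 and 484 ± 123.1, and Epha1 was at 834.3 ± 163.2 and 947.6 ± 240; neither passed the test, nor did Efna5 or Epha7.

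Ephrin-B ligands and EphB receptors rose as far as they were called. Of 8 genes 6 were tested, 5 rose, none fell and Ephb6 did not pass the test. These are 83.3% higher and 0% lower, beside 32.4% and 29.8% of all tested genes. The median log2 fold change was 1.32. Efnb2, the arterial ephrin (chromosome 8, 8617434 to 8661242), was at 16.7, 51.0 and 41.3 among controls 1 to 3, against 308.2, 185.5, 223.4, 168.2 and 211.7 among TAZ-CCl4 libraries 1 to 5. The groups were apart, with a log2 fold change of 2.67 ± 0.35 (limma adjusted p = 9.0e-05). Its partner Ephb4, the venous receptor, was at 252.9, 405.8 and 358.2 among controls 1 to 3, against 1287, 850, 752.8, 1026 and 764.5 among TAZ-CCl4 libraries 1 to 5 (chromosome 5, 137350109 to 137378669). The lowest treated value lay above the highest control, with a log2 fold change of 1.46 ± 0.21 (limma adjusted p = 1.9e-04).

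Efnb1, a membrane-spanning ephrin (chromosome X, 99136130 to 99148991), was at 242.7, 338.7 and 264.9 among controls 1 to 3, against 332.3, 330.6, 471.4, 463.3 and 456.5 among TAZ-CCl4 libraries 1 to 5. The groups overlapped through control 2. The log2 fold change of 0.54 ± 0.19 passed the test (limma adjusted p = 0.0277), but 5 of the 8 fits without 1 library lost the call, those without controls 1 or 3 or TAZ-CCl4 libraries 3, 4 or 5. Efnb2 and Ephb4 are known from blood vessels. Of the 12 markers of continuous endothelium 10 rose (sums of 1804 to 3190 and 4104 to 5498). Of 11 markers of sinusoidal endothelium 3 rose and 5 fell (3108 to 5844 and 4225 to 5236), and the endothelial Robo4 was not called. The part of endothelial cells in the values of Efnb2 and Ephb4 was not tested. Ephb2 rose from 10.3 ± 1.97 to 24.8 ± 5.12. Ephb3 rose from 6.26 ± 5.20 to 15.5 ± 3.15, and 2 of the 8 fits without 1 library kept its call, those without control 2 or TAZ-CCl4 library 2. Without control 2 the control mean of Ephb3 was 3.61.

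Of 8 netrin and Unc5 genes 5 were tested, 3 rose, 1 fell and 1 did not pass the test. These are 60% higher and 20% lower, beside 32.4% and 29.8% of all tested genes. The median log2 fold change was 1.72. Unc5b, a netrin receptor that is also found on vessels, was at 38.5, 34.7 and 47.7 among controls 1 to 3, against 1568, 580.2, 1051, 747.7 and 1042 among TAZ-CCl4 libraries 1 to 5 (chromosome 10, 60762593 to 60831581). The lowest treated library lay far above the highest control. The ratio of the group means was 24.8, with a log2 fold change of 4.53 ± 0.29 (limma adjusted p = 1.2e-06).

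Ntn4, a netrin of basement membranes (chromosome 10, 93640681 to 93747207), was at 52.8, 101.3 and 82.7 among controls 1 to 3, against 544.3, 413.8, 588.3, 448.8 and 670.5 among TAZ-CCl4 libraries 1 to 5. The groups were apart, with a log2 fold change of 2.77 ± 0.24 (limma adjusted p = 5.5e-06). Unc5a, a second netrin receptor, was at 15.7, 14.5 and 14.4 among controls 1 to 3, against 44.3, 57.7, 71.1, 39.4 and 48.4 among TAZ-CCl4 libraries 1 to 5 (chromosome 13, 54949411 to 55006018). It too did not overlap, with a log2 fold change of 1.72 ± 0.29 (limma adjusted p = 5.1e-04), but was not called with quantiles, at 0.71.

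Ntn3 fell (chromosome 17, 24203848 to 24209531). It was at 98.1, 95.2 and 86.2 among controls 1 to 3, against 34.4, 38.3, 20.6, 31.1 and 44.8 among TAZ-CCl4 libraries 1 to 5, without overlap. The log2 fold change was −1.48 ± 0.29 (limma adjusted p = 0.0012), and the fall was not called at equal totals, at −0.25, nor when those totals left out Mup and mitochondrial genes, at −0.66. Ntn1, the founding netrin and a ligand of Unc5b (chromosome 11, 68209364 to 68400823), was at 70.8, 124.2 and 108.4 among controls 1 to 3, against 90.7, 61.7, 91.9, 67.6 and 112.7 among TAZ-CCl4 libraries 1 to 5. The groups overlapped and no change was called, with a log2 fold change of −0.25 ± 0.27 (limma adjusted p = 0.456).

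The remaining 13 members stayed under the minimum mean and were not tested. Epha6 was listed at 0 in all libraries, and Epha8 and Ntn5 at 0 in all controls. Plxnb3 had a mean of 4.12 ± 2.50 in the controls and 12.2 ± 3.13 in the TAZ-CCl4 livers, without overlap. Efna2, Efna3, Efnb3, Epha10, Ephb1, Sema4f, Unc5c and Unc5d had group means of 1.03 to 11.4, and only those of Efna2 did not overlap between groups. Around the minimum of 10, the nearest members outside were Unc5d with a mean of 9.61 over the 8 libraries and Robo3 with 9.51, and the nearest inside was Slit1 with 10.8.

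The makeup of each family was compared between groups per kilobase of transcript, with the longest protein-coding transcript of each gene as its length. In these sums of normalised counts per kilobase, 1 gene each held most of the semaphorin, plexin and ephrin-A levels in the controls and a smaller share in the TAZ-CCl4 livers. Sema4g made up 85.5% ± 1.87 of the semaphorin level in the controls (SD, n = 3) and 51.9% ± 7.40 in the TAZ-CCl4 livers (SD, n = 5). Sema4a came next, with 9.34% and 16.5%. Plxnb2 held 74.6% ± 2.69 of the plexin level and then 49.2% ± 2.01, while Plxnb1 held 12.9% and then 28.5%. Efna1 held 74.2% ± 2.34 of the ephrin-A and EphA level and then 51.9% ± 10.4, while Epha1 held 15.5% and then 27.1%.

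Among netrin and Unc5 genes, the shares of Unc5b and Ntn3 moved most. In the controls Ntn4 (30.5%), Ntn3 (27.0%) and Ntn1 (24.4%) had the highest shares, with overlapping ranges, and Unc5b held 10.0% ± 2.31. In the TAZ-CCl4 livers Unc5b held 47.2% ± 7.23 and Ntn4 42.2% ± 5.28, again with overlapping ranges, while Ntn1 held 4.13% and Ntn3 2.01%. Among ephrin-B and EphB genes, Efnb1 (48.3%) and Ephb4 (43.2%) led in the controls, and in the TAZ-CCl4 livers Ephb4 (52.8%) lay above Efnb1 (31.7%). Robo4 led the Slit and Robo genes with 52.8% ± 17.1 and then 48.6% ± 8.16, and Robo2 and Slit2 went from 2.05% and 2.10% to 11.6% each.

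Summed over all members of a family, the level per kilobase of the netrin and Unc5 genes was 69.8 ± 10.9 in the controls and 352.4 ± 85.8 in the TAZ-CCl4 livers, a ratio of 5.05. That of the ephrin-B and EphB genes was 179.8 ± 33.5 and 404.4 ± 51.2, that of the Slit and Robo genes 60.1 ± 11.7 and 94.4 ± 9.54, and that of the plexins 1107 ± 79.9 and 1319 ± 127.7. These 4 sums were higher in the TAZ-CCl4 livers at all 5 scalings, but the scalings by a single factor per library raised every ratio. The semaphorin sum was 3894 ± 555.3 and 2249 ± 274.6, a log2 ratio of −0.79 that turned to 0.45 at equal totals, 0.042 with Mup and mitochondrial genes left out of these and 0.056 with quantiles. The ephrin-A and EphA sum was 1637 ± 172.9 and 1099 ± 202.2, a log2 ratio of −0.58 that turned to 0.66 and 0.25 under the first 2 of these. The sums follow the leading genes, so the semaphorin sum was lower as deposited although 14 of 19 tested semaphorins rose.

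**Figure D4:**
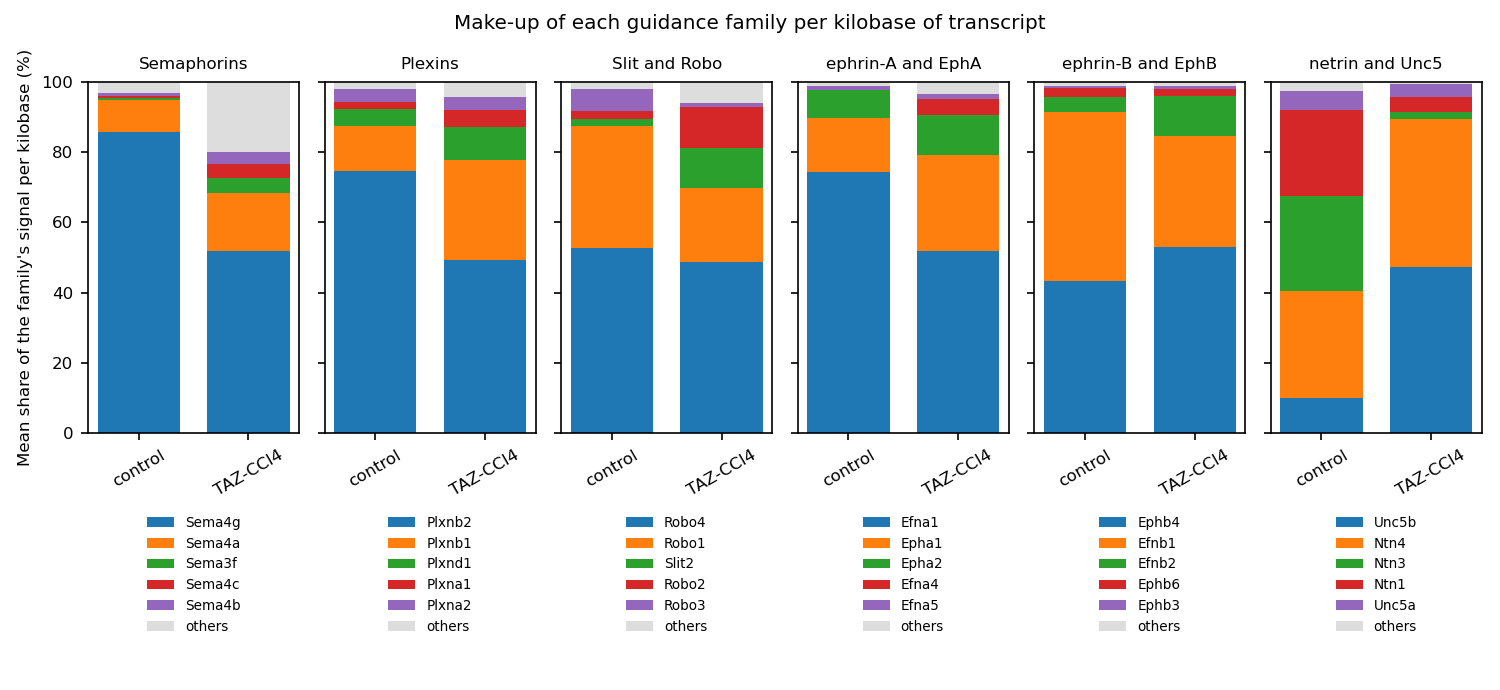
Mean share (y, in %) of each gene in its family's summed normalised counts per kilobase, for controls and TAZ-CCl4 livers, with the 5 genes of highest share in either group coloured and the rest in grey. Sema4g, Plxnb2 and Efna1 hold smaller shares in the TAZ-CCl4 livers (51.9%, 49.2% and 51.9%) than in the controls, and Unc5b a larger one (47.2% against 10.0%).

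Some known ligand and receptor pairs, picked as examples with their values in view, can be set side by side. Sema3e and Plxnd1 both rose, with log2 fold changes of 5.40 and 1.31. Sema4d and Plxnb1 both rose, by 2.85 and 1.40. Efnb2 and Ephb4 both rose, by 2.67 and 1.46. Unc5b rose by 4.53, while its ligand Ntn1 was not called, at −0.25. Ntn4 rose by 2.77 but is not taken here as a settled ligand of Unc5b. Of the neuropilins, co-receptors of most class 3 semaphorins, Nrp1 fell by 1.39 on the log2 scale, a fall not called at equal totals. Nrp2 only just passed the test as higher, at 0.48 (limma adjusted p = 0.0499), with overlapping groups, and was not called with quantiles. Sema3a, Sema3b, Sema3c, Sema3f and Sema3g rose. Slit2 and Robo2 both rose, by 3.46 and 2.86, while Robo1 was not called. In other pairs only one partner was called: Sema7a rose and Plxnc1 was not called, and Efna1 fell and Epha2 was not called. Over all tested members, 21 of 30 ligands rose (70%) and 4 fell (13.3%), and 13 of 23 receptors rose (56.5%) and 1 fell (4.35%). The shares over all tested genes were 32.4% and 29.8%. Whether ligands and receptors differ was not tested.

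Among the 34 members that rose, the treated libraries shared no single order. TAZ-CCl4 libraries 1 and 4 were the highest of the 5 for 10 members each, library 2 for 4, and libraries 3 and 5 for 5 each. Library 2 was the lowest for 11 members and library 1 for 1. The highest treated library was 6.61 times the lowest for Sema3e and 6.49 times for Sema3c, the widest spreads of these members, and 1.27 times for Plxnb1, the narrowest.

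Co-receptors and effectors of the same pathways were read from lists made by textbook role. Of 30 co-receptors and related ligands, 22 were tested, 14 rose, 4 fell and 4 did not pass the test. These are 63.6% higher and 18.2% lower, beside 32.4% and 29.8% of all tested genes. The median log2 fold change was 1.23. Of the neuropilins, Nrp1 fell from 1216 ± 218.4 to 471.9 ± 123.8, a log2 fold change of −1.39 that was not called at equal totals. Nrp2 was at 169.3 ± 28.7 and then 238.3 ± 43.2, with overlapping groups. It only just passed the test as higher (limma adjusted p = 0.0499) and was not called with quantiles. The netrin receptor Neo1 rose, with a log2 fold change of 0.75, and Dcc was listed at 0 in all controls and had a mean of 0.181 in the TAZ-CCl4 livers. The largest rise was in Rgma, a neogenin ligand (chromosome 7, 73375509 to 73419899). It was at 0, 9.12 and 2.33 among controls 1 to 3, against 50.9, 136, 105.5, 205.9 and 98.5 among TAZ-CCl4 libraries 1 to 5, with a log2 fold change of 5.08 ± 0.69 (limma adjusted p = 1.1e-04). Without control 2 its control mean of 3.82 became 1.17.

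Flrt3, a membrane protein that binds Unc5 receptors and Robo1, was at 5.64, 4.81 and 22.7 among controls 1 to 3, against 195.4, 105.7, 226.2, 336.3 and 192.2 among TAZ-CCl4 libraries 1 to 5 (chromosome 2, 140650914 to 140671469). Its log2 fold change was 4.36 ± 0.49 (limma adjusted p = 3.5e-05), and without control 3 its control mean of 11.04 became 5.22. Itga3, an integrin subunit, was at 162, 162.3 and 149.8 among controls 1 to 3, against 2370, 1519, 1318, 1330 and 1372 among TAZ-CCl4 libraries 1 to 5 (chromosome 11, 95044474 to 95076801), a log2 fold change of 3.28 ± 0.19 (limma adjusted p = 8.6e-07). All 3 genes had groups that did not overlap.

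Of 50 effectors inside the cell, 48 were tested, 30 rose, 2 fell (Chn2 and Grb7) and 16 did not pass the test. These are 62.5% higher and 4.17% lower, beside 32.4% and 29.8% of all tested genes. The median log2 fold change was 0.85. At equal totals Chn2 was not called and Grb7 was called higher. Pak3, a kinase activated by Rac and Cdc42, was at 0, 10.4 and 0 among controls 1 to 3, against 482, 93.2, 121.8, 226.6 and 228.2 among TAZ-CCl4 libraries 1 to 5 (chromosome X, 143518591 to 143797796). Its control level rested on control 2 alone, and the log2 fold change was 6.45 ± 0.81 (limma adjusted p = 7.1e-05). Pak1, a kinase of the same group, was at 15.7, 26.0 and 33.4 among controls 1 to 3, against 350.2, 280.2, 529.3, 697.7 and 449 among TAZ-CCl4 libraries 1 to 5 (chromosome 7, 97788541 to 97912381), with a log2 fold change of 4.14 ± 0.33 (limma adjusted p = 3.4e-06). Nck2, an adaptor that links guidance receptors to the actin machinery, was at 26.7, 54.7 and 56.6 among controls 1 to 3, against 586.1, 356.2, 489.5, 664.6 and 619.3 among TAZ-CCl4 libraries 1 to 5 (chromosome 1, 43444579 to 43570515), with a log2 fold change of 3.57 ± 0.29 (limma adjusted p = 3.7e-06). The small GTPases Rac1 and Rhoa did not pass the test as deposited, with log2 fold changes of 0.18 and 0.16. Both were called higher at the 4 other scalings, at 0.42 and 0.41 with equal upper quartiles and 0.85 each with quantiles.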

How the data were processed

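Each gene has 1 value per library in the authors' deposited table, a normalised count (a signal, no whole count), taken here as a scaled estimated count. Whether the scaling differed between genes as well as between libraries was not tested. The table's name gives kallisto and DESeq2, and DESeq2 and build mm10 are stated per the submitters' processing notes. Not given in the sources used here were versions, transcript annotation and filters. The value of 1 read, estimated from low values, was 0.366 to 1.88, which puts the depth at 12.4 to 33.8 M reads; 47.3% to 66.8% of values up to 10 lay within 0.03 of whole multiples, so read counts could not be recovered and count models were left out. TAZ-CCl4 library 4 was the deepest, at 33.8 M, and the other treated libraries were at 12.4 to 14.4 M. Pairs of controls differed by 4.72 to 6.37 times the counting variance and pairs of TAZ-CCl4 libraries by 7.11 to 38.6 times, so none was taken as a duplicate. The pairs with library 4 differed by 25.4 to 38.6 times. The fit takes a single variance per gene for both groups, although the spread differed between them.

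Genes whose mean over the 8 libraries was 10 or more were compared on log2(value + 1) with limma 3.58.1 (R 4.3.3), its prior variance following a trend, two-sided, adjusted by Benjamini-Hochberg over 14171 genes, threshold 0.05, with no covariate. Alternatives were 4 other scalings, pseudocounts of 0.5 and 5, no filter, a minimum mean of 50, no trend, a replicate block and 8 fits without 1 library each. The script was tested on simulated data. Positions and lengths are from GENCODE M21 (mm10); 33 of the 53 tested members overlap another annotated gene, 24 of them one on the opposite strand, and shared reads were not resolved. Start regions are from RefSeq, GRCm38.p6.

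Members and lists were chosen with earlier results of these data known. Values in every library are given for the 4 called members of each family with the largest change and a group mean of at least 50, the members with the highest mean in each group, and 3 called genes of each list of other guidance genes by the same rule; other genes are named to account for all members or as examples picked with their values in view.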

Additional observations from a re-analysis of the deposited data

Results flagged for a closer look

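Of the 53 tested members, 3 had a library past Dixon's critical value for a group of 5, and chance alone flags about 1 in 20 such groups. Plxna3 was at 452.6 normalised counts in TAZ-CCl4 library 4, while the other 4 treated libraries lay between 99.7 and 198.1, and the gap to the next library was 0.721 of the group's whole range. Sema6a was at 587.3 in the same library and at 175.4 to 211.2 in the other 4, a gap of 0.913 of the range. Sema4b was at 395.5 in library 1 and at 277.3 to 298 in the other 4, a gap of 0.825. Without the library in question the log2 fold change was 2.65 in place of 2.99 for Plxna3, 1.62 in place of 1.94 for Sema6a and 1.27 in place of 1.36 for Sema4b, and all 3 genes stayed called. The cause was not tested.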

How the results depend on the processing

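Scaling moved the calls most. At equal totals, higher calls were 10810 of all tested genes (76.3%, and 4592 genes as deposited). They were 7 of the ephrin-A and EphA genes, 8 of the plexins and 46 of the effectors (95.8%). Lower calls were 906 of all genes (6.39%, and 4230 genes as deposited), 2 members and 1 semaphorin. They were also 1 ephrin-A or EphA gene, 0 netrin or Unc5 genes, 0 co-receptors and 0 effectors. With Mup and mitochondrial genes left out of the totals, higher calls were 8914 of all genes, 6 ephrin-A and EphA genes and 8 plexins; lower calls were 1512 of all genes, 3 members, 1 ephrin-A or EphA gene, 0 netrin or Unc5 genes, 1 co-receptor and 1 effector. At equal upper quartiles 2 co-receptors were called lower. With quantile normalisation 8 members and 2 netrin or Unc5 genes were called lower and 2 ephrin-B or EphB genes higher. The log2 ratio of the summed level per kilobase at equal totals and, second, with Mup and mitochondrial genes left out was 0.45 and 0.042 for semaphorins, 1.51 and 1.09 for plexins, 1.89 and 1.49 for Slit and Robo, 0.66 and 0.25 for ephrin-A and EphA, 2.41 and 2.01 for ephrin-B and EphB, and 3.57 and 3.17 for netrin and Unc5. It was 0.51 for plexins at equal upper quartiles, and with quantiles 0.93 for plexins, 0.21 for Slit and Robo and 0.056 for semaphorins. Among the 26 members given in every library, the log2 fold changes that turned were those of Plxnb2 (0.90 at equal totals, 0.48 there without Mup and mitochondrial genes, 0.53 with quantiles), Efna1 (0.12 at equal totals) and Ntn1 (0.99 at equal totals, 0.58 there without Mup and mitochondrial genes). Over all 53 tested members 11 turned under at least 1 scaling, the other 8 (Efna5, Epha2, Epha7, Ephb6, Plxnc1, Robo1, Sema3d and Sema6c) all uncalled as deposited.

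With a minimum mean of 50, 14 members were left untested, so that 2 Slit or Robo genes, 3 ephrin-B or EphB genes and 8 co-receptors were called higher and 3 members, 1 semaphorin and 1 ephrin-A or EphA gene lower. With no filter Robo3 entered the fit as 1 Slit or Robo gene called lower, and the calls of Ephb3, Sema3a and Sema6d were lost. Pseudocounts of 0.5 and 5 changed no call of a member, and the fit with no trend lost that of Sema6d. Over the 8 fits without 1 library, members called higher were 28 to 33 and lower 5 to 6, ephrin-B and EphB genes higher 3 to 5, plexins lower 0 to 1, co-receptors lower 2 to 4 and effectors lower 2 to 4, and no member turned to the opposite call. Deviations of same-numbered libraries from their group means correlated at −0.07, −0.06 and −0.09, and those of other pairs at −0.09 to 0.07. No pairing by number was seen, which so few libraries cannot exclude. The replicate block lost the calls of Efnb1, Ephb2, Ephb3, Sema3a, Sema6d, Slit1 and Slit3, leaving 2 Slit or Robo and 2 ephrin-B or EphB genes higher and 2 co-receptors lower. Where no construction of the fit shows it, the cause was not tested. Members with control values of a few reads, such as Sema3e, Sema7a and Efna4, have fold changes limited by depth.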
